A study of Rattus norvegicus with 9 samples.

Results

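The genes described are Hoxb4, Hoxb6, Hoxb7, Hoxd8, Hoxd9 and Hoxd10, which lie in 2 of the Hox clusters of the rat genome. Every probe set with 1 of these names as its only gene symbol was taken, which gave 6 probe sets, 1 for each gene, out of 31099 on the array. All 6 passed the filter on low values, with signals above the array's 40th percentile on all 9 arrays.

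Signals were measured in total RNA from tissue of Sprague-Dawley rat embryos at embryonic day 13, with 3 arrays for each of 3 tissues. The ureteric bud (UB) is the epithelial outgrowth that invades the kidney mesenchyme and branches into the collecting system. About 100 buds were pooled for each array after a light trypsin digestion had freed them from the kidney. The Wolffian duct with attached mesodermal cells (WD with mesoderm) was pooled from about 50 ducts per array, and the bare Wolffian duct (WD), the tube from which the bud grows, from about 100. Ducts were dissected without enzyme. A comparison of UB with WD, or of UB with WD with mesoderm, therefore cannot be told apart from one of digested with undigested tissue. The labels name no transgene or drug treatment, and no stretch of the duct along the body axis is given for any sample.

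Hox genes encode homeodomain transcription factors and sit in clusters in which a gene's place matches the part of the body axis where it is used. Genes at the 3′ end of a cluster carry low paralog numbers and start early and towards the head, and genes towards the 5′ end carry high numbers and start later and towards the tail. Hoxb7 is a familiar marker of this lineage, since a Hoxb7 promoter drives transgenes in the duct and bud of the mouse. Hox proteins bind DNA together with homeodomain cofactors of the Pbx, Meis and Pknox families.

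The tissue labels were checked against marker lists. Over 14 duct and bud epithelial genes, the summed signal was 235867 to 255380 intensity units in the UB, 78061.7 to 118060 in the WD with mesoderm and 250315 to 270717 in the WD. Over 15 mesenchymal genes it was 18234 to 24983.3 in the UB, 305013 to 364635 in the WD with mesoderm and 133972 to 172305 in the WD, so that the bare duct stood between the other tissues. A sum over 12 endothelial genes was 3367.4 to 4521.88 in the UB, 47236.6 to 47382.6 in the WD with mesoderm and 5511.34 to 6756.36 in the WD. Over 8 genes of coelomic epithelium and intermediate mesoderm it was 3827.91 to 4762.52 in the UB. In the WD with mesoderm that sum was 78953.4 to 92751.5, and in the WD 49421.9 to 55055.7. Over 7 red cell genes it was 3217.56 to 8220, 76214.9 to 121349 and 78807 to 133022 in the same order. A ratio of spike-in controls, bioC over bioB, lay at 2.88 to 2.99 in the UB, 2.93 on replicate 3 of WD with mesoderm and 1.02 to 1.24 on the other 5 arrays. The 3′ to 5′ ratio of beta-actin was 1.48 to 2.30 in the UB, 1.47 to 1.92 in the WD with mesoderm and 2.19 to 4.87 in the WD.

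Opposite profiles were seen across the 3 tissues. Hoxb4, Hoxb6, Hoxb7 and Hoxd8 had their highest mean in the UB and their lowest in the WD with mesoderm. For Hoxb6 and Hoxd8 the UB and WD arrays overlapped and the 2 tissues were not told apart (adjusted p = 0.098 and 0.562). Hoxd9 and Hoxd10, the pair with the highest paralog numbers, were weakest in the UB. All 6 genes were called between UB and WD with mesoderm, at an adjusted p under 0.05, with 4 higher and 2 lower in the UB. The call of Hoxd9 was lost in 14 of 24 alternatives, at -0.034 with arrays centred on their median (adjusted p = 0.916). Of all 20334 probe sets tested in that comparison, 25.5% were called, 11.0% as higher and 14.5% as lower in the UB. The arrays of the 2 tissues did not overlap for any of the 6 genes, 4 higher and 2 lower in the UB, as for 20.0% and 22.6% of all probe sets. With arrays centred on their median, 4610 probe sets were called higher and 1793 lower there, against 2228 and 2949 as reported.

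**Figure D1:**
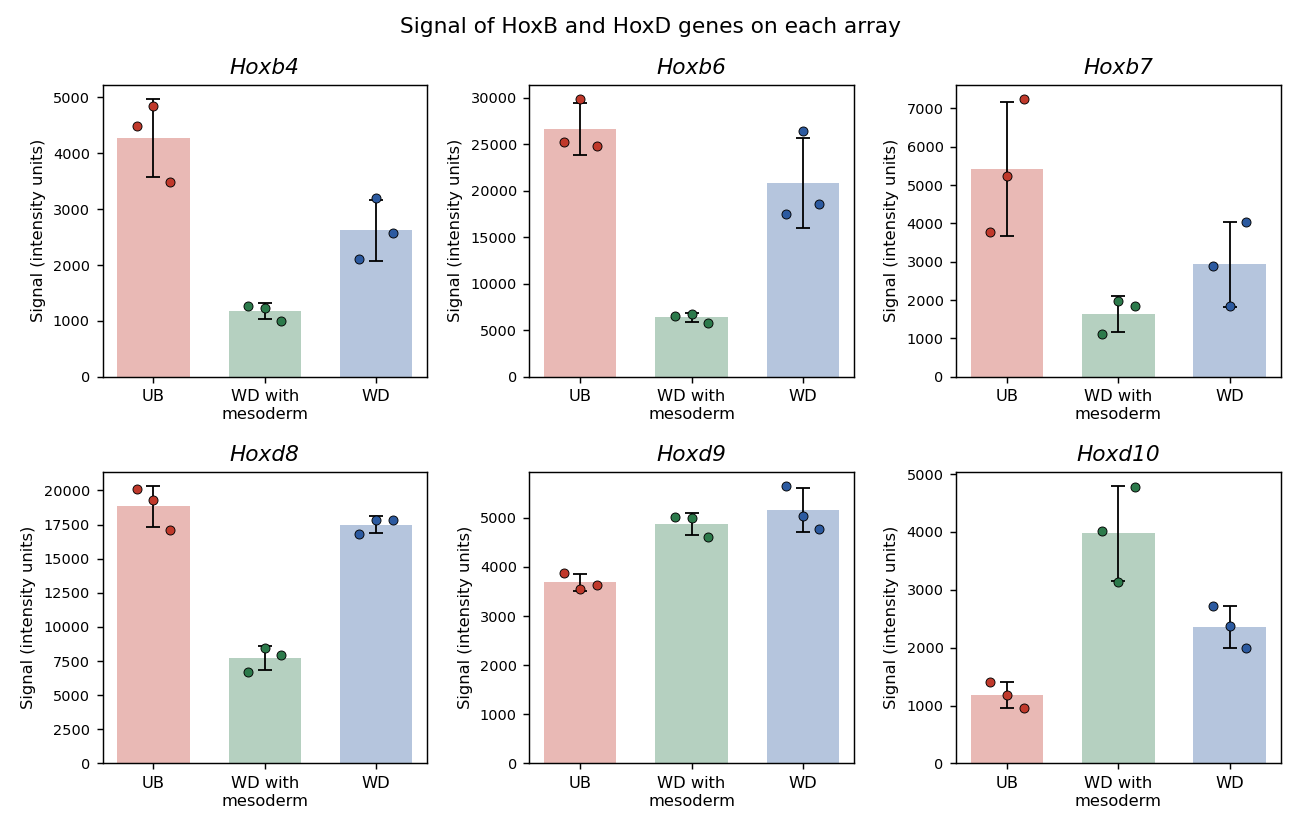
Signal of each gene in linear intensity units on the y axis, for UB, WD with mesoderm and WD on the x axis. Points are arrays, bars are means and error bars are SD over 3 arrays. Hoxb4, Hoxb6, Hoxb7 and Hoxd8 have their lowest bar in the WD with mesoderm, and Hoxd9 and Hoxd10 have theirs in the UB.

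Hoxb4 is a factor of paralog group 4, known in the mouse for its effect on blood stem cell growth. Its signal was 4486, 4845 and 3494 in the 3 UB samples, 1274, 1229 and 1005 in those of WD with mesoderm and 2103, 3192 and 2565 in those of WD. The 3 tissues did not overlap, and the order was UB, then WD, then WD with mesoderm. The UB mean was 4275 ± 700.1 and the WD mean 2620 ± 546.5 (SD, n = 3 each). On the log2 scale UB was higher than WD by 0.70 ± 0.20 (SE, adjusted p = 0.0222). Against the WD with mesoderm, whose mean was 1169 ± 144.3 (SD, n = 3), the UB was higher by 1.82 ± 0.20 (adjusted p = 2.99e-05).

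Hoxb6, of paralog group 6, had the same order of means but did not separate the UB from the bare duct. Its signal was 25246, 29895 and 24827 in the UB, 6527, 6795 and 5817 in the WD with mesoderm and 17534, 26385 and 18596 in the WD. Replicate 2 of the WD lay above 2 of the 3 UB arrays, while every array of WD with mesoderm lay below every other array. The log2 difference of UB from WD was 0.37 ± 0.16, with a 95% interval of 0.02 to 0.72 and an adjusted p of 0.098. Without WD replicate 2 it was 0.56 ± 0.13 and passed (adjusted p = 0.015). With a log2 difference of 2.05 ± 0.16 between UB and WD with mesoderm (adjusted p = 1.44e-06), Hoxb6 had the largest difference of the 6 genes in that comparison. In the gene table the non-coding RNA Hoxb5os overlaps Hoxb6, and which of the 2 the probe set reads was not tested.

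Hoxb7, the gene whose mouse promoter marks this epithelium, varied most between arrays of a tissue. Its signal was 3770, 5235 and 7251 in the UB, 1105, 1985 and 1833 in the WD with mesoderm and 2885, 1850 and 4049 in the WD. All UB arrays lay above all arrays of WD with mesoderm, but both of these tissues overlapped with the WD. The coefficient of variation within a tissue was 28.7% to 37.6%, against 3.50% to 23.2% for the other 5 genes. UB was higher than WD by 0.90 ± 0.32 on the log2 scale, just inside the threshold (adjusted p = 0.0496). It was higher than WD with mesoderm by 1.69 ± 0.32 (adjusted p = 0.00172).

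**Figure D2:**
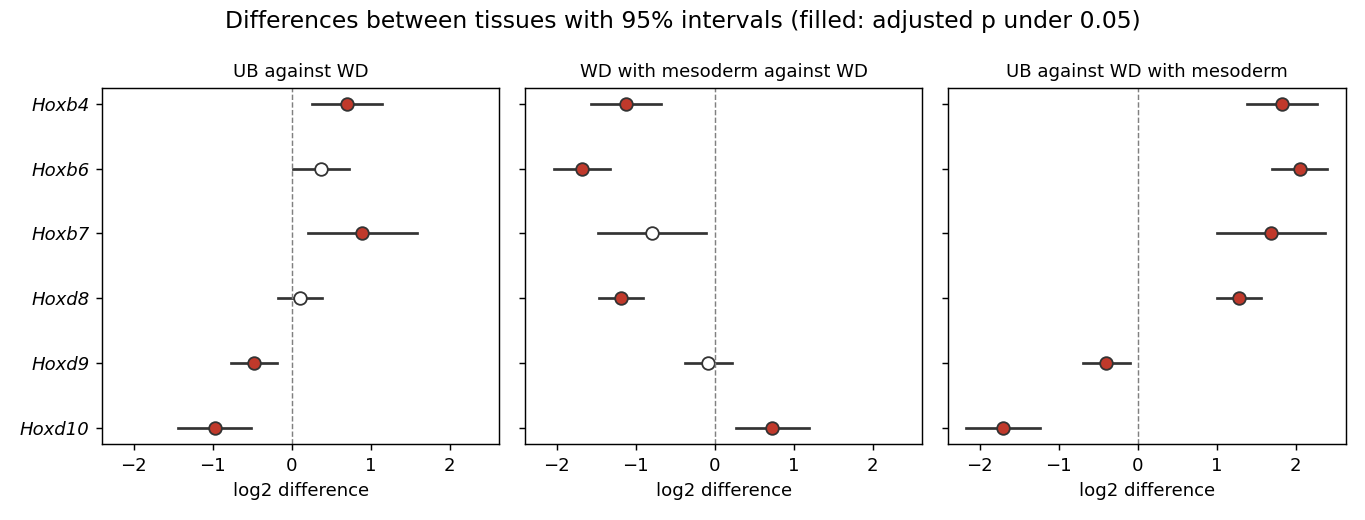
log2 difference on the x axis for each gene on the y axis, in 3 comparisons. Lines are 95% intervals, and filled points have an adjusted p under 0.05. The 4 upper genes lie left of 0 in WD with mesoderm against WD and right of 0 in UB against WD with mesoderm, and Hoxd10 lies on the opposite side in both.

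The 3 HoxD genes are direct neighbours, in the order Hoxd10, Hoxd9, Hoxd8 with no other gene between them in the RefSeq gene table of GRCr8. Hox genes of these groups are known in the mouse from the patterning of the lower trunk, the spinal cord and the limb. The direction of the differences turned within this run of genes, so their promoters are shown here. Each sequence covers 250 bases before to 50 bases after the gene's start, from RefSeq on GRCr8, plus strand, at chr3:80014973-80015272 for Hoxd8, chr3:80007756-80008055 for Hoxd9 and chr3:80001697-80001996 for Hoxd10. Capitals mark matches to CACGTG and to CCAAT on either strand.
Hoxd8: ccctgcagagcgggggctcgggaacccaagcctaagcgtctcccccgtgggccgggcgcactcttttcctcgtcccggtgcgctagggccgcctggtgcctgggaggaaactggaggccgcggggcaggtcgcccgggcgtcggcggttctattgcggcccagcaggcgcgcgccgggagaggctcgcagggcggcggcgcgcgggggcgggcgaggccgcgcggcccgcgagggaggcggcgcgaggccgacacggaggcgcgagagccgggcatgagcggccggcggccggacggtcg
Hoxd9: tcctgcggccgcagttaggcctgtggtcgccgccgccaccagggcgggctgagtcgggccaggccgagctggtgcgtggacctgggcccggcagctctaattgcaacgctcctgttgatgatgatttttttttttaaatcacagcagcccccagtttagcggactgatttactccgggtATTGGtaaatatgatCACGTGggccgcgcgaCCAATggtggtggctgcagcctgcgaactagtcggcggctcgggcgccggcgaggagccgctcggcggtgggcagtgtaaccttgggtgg
Hoxd10: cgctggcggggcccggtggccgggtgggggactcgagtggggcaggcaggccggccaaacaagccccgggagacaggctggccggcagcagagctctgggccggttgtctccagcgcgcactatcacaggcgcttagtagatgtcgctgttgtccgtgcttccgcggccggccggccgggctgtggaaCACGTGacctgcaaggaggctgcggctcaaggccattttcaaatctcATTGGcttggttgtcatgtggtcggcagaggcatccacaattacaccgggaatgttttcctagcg

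The Hoxd8 promoter held 0 matches to CACGTG and 0 to CCAAT. The Hoxd9 promoter held 1 match to CACGTG and 2 to CCAAT, and that of Hoxd10 held 1 of each. These matches do not overlap. Of 33469 promoters of this length, 6.42% held CACGTG and 37.5% held CCAAT. TGATNNAT, a form of the site that Hox and Pbx proteins share, had 0 matches in any of the 3, against 9.1% of all promoters. TATAAA also had 0 in each, against 14.2%. GGGCGG had 2 matches in Hoxd8, 1 in Hoxd9 and 0 in Hoxd10, and 33.1% of all promoters held it. Whether any of these motifs bears on the direction of the differences was not tested. The G and C content was 79% for Hoxd8, 62.7% for Hoxd9 and 64.7% for Hoxd10, with 49, 27 and 24 CpG sites, where the median promoter had 51.7% and 7. These motifs were picked after the sequences were read, and a match describes letters only. Of the 6 genes, 3 had a promoter in the table used.

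Hoxd8, of paralog group 8, followed the HoxB genes. Its signal was 20066, 19285 and 17110 in the UB, 6733, 8471 and 7908 in the WD with mesoderm and 16771, 17827 and 17837 in the WD. UB and WD overlapped, and both lay wholly above the WD with mesoderm. The log2 difference of UB from WD was 0.10 ± 0.13, with a 95% interval of -0.17 to 0.38 (adjusted p = 0.562). UB was higher than WD with mesoderm by 1.29 ± 0.13 (adjusted p = 1.02e-05).

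Hoxd9, the next gene of the run, was close to level between the 2 duct tissues and lower in the bud. It had 3885, 3552 and 3626 in the UB, 5006, 5003 and 4609 in the WD with mesoderm and 5655, 5044 and 4778 in the WD. The 3 UB arrays lay below the other 6. Its log2 difference was -0.48 ± 0.14 for UB against WD (adjusted p = 0.0207) and -0.40 ± 0.14 for UB against WD with mesoderm (adjusted p = 0.0494). With median centring the first of these was -0.017 (adjusted p = 0.959), and its call was lost in 7 of 23 alternatives. The second was -0.034 with median centring (adjusted p = 0.916). It also missed the threshold with quantile normalization (-0.38, adjusted p = 0.0699). WD with mesoderm differed from WD by -0.08 ± 0.14, with a 95% interval of -0.37 to 0.22 (adjusted p = 0.752).

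Hoxd10, of paralog group 10, ran opposite to Hoxd8. Its signal was 1407, 1184 and 960.3 in the UB, 4012, 3143 and 4783 in the WD with mesoderm and 2716, 2379 and 1991 in the WD. The tissues did not overlap, and their order was WD with mesoderm, then WD, then UB. The means were 1184 ± 223.5 in the UB, 3979 ± 820.8 in the WD with mesoderm and 2362 ± 362.7 in the WD (SD, n = 3 each). Hoxd10 changed by -0.97 ± 0.21 in UB against WD (adjusted p = 0.0056) and by -1.71 ± 0.21 in UB against WD with mesoderm (adjusted p = 7.69e-05).

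Signals of neighbours were also set against each other within each array, which takes out the scaling between arrays. The ratio of Hoxd10 to Hoxd8, with the WD mean set to 1, was 0.523, 0.458 and 0.418 in the UB, 4.44, 2.77 and 4.51 in the WD with mesoderm and 1.21, 0.995 and 0.832 in the WD. For Hoxd9 over Hoxd8 it was 0.657, 0.625 and 0.72 in the UB, 2.52, 2.00 and 1.98 in the WD with mesoderm and 1.15, 0.961 and 0.909 in the WD. Both ratios separated the 3 tissues with no overlap, lowest in the UB and highest in the WD with mesoderm. These pairs were chosen after their values were seen and were given no test.

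UB was compared with WD to see what differs between the bud and the tube it leaves. Of the 6 genes, 2 were called higher (Hoxb4 and Hoxb7) and 2 lower (Hoxd9 and Hoxd10), while 29.9% of all probe sets were called, 11.3% higher and 18.6% lower. The arrays did not overlap for 1 gene that was higher (Hoxb4) and 2 that were lower (Hoxd9 and Hoxd10), as for 18.3% and 29.5% of all probe sets. The called shares are 2297 and 3776 probe sets, against 2527 and 2433 with quantile normalization and 5836 and 1530 with median centring. The calls of the 6 genes depended on the fit. With a term for the spike ratio (above 2 or not), which in this comparison rests on replicate 3 of WD with mesoderm alone, 0 of the 6 were called, with log2 differences of 1.01 ± 0.36 for Hoxb4, 0.60 ± 0.59 for Hoxb7, -0.36 ± 0.25 for Hoxd9 and -1.40 ± 0.37 for Hoxd10. With the actin ratio as a covariate 0 were called too, and the count was 2 when UB replicate 1 or UB replicate 3 was left out, 1 when UB replicate 2 or WD replicate 1 was, and 3 without replicate 2 or 3 of WD with mesoderm. Median centring moved the median difference of all probe sets to 0.34, against -0.12 as reported, and with it Hoxd9 stood at -0.02 ± 0.21 and Hoxd10 at -0.51 ± 0.27, both no longer called, and Hoxb6 at 0.83 ± 0.22 was called. The part of RNA integrity, batch and digestion in these differences was not tested beyond these fits. Tissue makeup differed as well. Of 15 mesenchymal genes, 1 was called higher and 11 lower in this comparison, with a median of -2.00. Of 14 epithelial genes, 4 were called higher and 5 lower, with a median of -0.12. The part of tissue makeup in the Hox differences was not tested.

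WD with mesoderm was compared with WD to see what the attached cells bring. Hoxb4 fell by 1.12 ± 0.20 on the log2 scale (SE, adjusted p = 0.00328), Hoxb6 by 1.68 ± 0.16 (adjusted p = 7.67e-05) and Hoxd8 by 1.18 ± 0.13 (adjusted p = 1.42e-04). Hoxb7 stood at -0.79 ± 0.32, with a 95% interval of -1.48 to -0.10, and did not pass (adjusted p = 0.124). It was -0.53 without WD replicate 3 and -0.54 without replicate 1 of WD with mesoderm. Hoxd10 rose by 0.73 ± 0.21 (adjusted p = 0.0425). So 1 of the 6 was called higher and 3 lower, while 12.7% of all probe sets were called, 5.62% higher and 7.06% lower. The arrays of these 4 genes did not overlap between the tissues, as for 13.5% (higher) and 16.0% (lower) of all probe sets. The called shares are 1142 and 1435 probe sets, against 1242 and 923 with median centring.

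Epithelial genes moved with the 3 that fell. Of the 14 epithelial genes, 0 rose and 12 fell in WD with mesoderm against WD, with a median log2 difference of -1.60, against -0.04 over all probe sets. Among them Cdh1, the epithelial cadherin, changed by -1.69 ± 0.16 and Pax8, a transcription factor of the duct lineage, by -1.75 ± 0.16. Krt19, a keratin of the same list, did not fall, with means of 14649 in the WD and 14931 in the WD with mesoderm. Of 15 mesenchymal genes, 11 rose and 0 fell, with a median of 1.41. Of 12 endothelial genes, 10 rose and 0 fell, with a median of 2.72. Among all probe sets, 5.62% were called higher and 7.06% lower in this comparison. In bulk tissue, fewer cells of a type and less RNA per cell cannot be told apart, and the part of tissue makeup in the Hox differences was not tested. The call of Hoxd10 did not hold without replicate 3 of WD with mesoderm (0.59 ± 0.23, adjusted p = 0.143), nor without UB replicates 1 or 2, WD replicates 1, 2 or 3, or replicate 1 of WD with mesoderm, at adjusted p-values up to 0.106. Within the 5 arrays of low spike ratio, Hoxb4, Hoxb6 and Hoxd8 stood at -1.02 ± 0.26, -1.61 ± 0.21 and -1.20 ± 0.18, all called.

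UB against WD with mesoderm gave the largest differences for Hoxb4, Hoxb6, Hoxb7, Hoxd8 and Hoxd10. It shares arrays with both comparisons above, and like UB against WD it sets digested against undigested tissue. With the spike ratio as a term, Hoxb4 stood at 2.03 ± 0.28, Hoxb6 at 2.18 ± 0.23, Hoxd8 at 1.24 ± 0.18 and Hoxd10 at -1.99 ± 0.29, all called, and Hoxb7 at 1.49 ± 0.46, not called (adjusted p = 0.0625). The call of Hoxd9 in this comparison was lost without any single array other than WD replicates 2 and 3, at adjusted p-values of up to 0.143. In the same comparison the epithelial list had 12 of 14 genes higher and 1 lower in the UB, with a median of 1.28, and the mesenchymal list 0 higher and 14 of 15 lower, with a median of -3.64.

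Other genes of the 2 clusters were read from the same fit. Of the 19 HoxB and HoxD genes of the rat, 13 had a probe set with 1 symbol and 11 were tested. The other 5 tested were Hoxb2, Hoxb3, Hoxd1, Hoxd3 and Hoxd4, all of low paralog number. In the gene table Hoxb3 overlaps the non-coding RNA LOC102550580, and Hoxd4 overlaps the non-coding RNAs LOC120101573 and Mir10b. Which of these transcripts the probe sets read was not tested. In WD with mesoderm against WD all 5 were called lower, at -1.03 ± 0.24 for Hoxb2, -1.02 ± 0.17 for Hoxb3, -1.50 ± 0.26 for Hoxd1, -1.21 ± 0.18 for Hoxd3 and -1.06 ± 0.18 for Hoxd4. With the 6 genes described this makes 8 of 11 called lower and 1, Hoxd10, called higher, beside 7.06% and 5.62% of all probe sets. The call of Hoxd10 was lost in 16 of 24 alternatives. With the actin ratio as a covariate only Hoxb3 of these 5 was still called, while Hoxb2 stood at -0.59, Hoxd1 at -0.90, Hoxd3 at -0.79 and Hoxd4 at -1.08, at adjusted p-values of 0.0548 to 0.384. With median centring Hoxb2 was not called (-0.93, adjusted p = 0.0592).

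In UB against WD, the HoxB and HoxD genes of low number differed in direction. Hoxd3 changed by -0.56 ± 0.18 (adjusted p = 0.0348) and Hoxd4 by -0.73 ± 0.18 (adjusted p = 0.0107), while Hoxb2 stood at 0.60 ± 0.24 (adjusted p = 0.0836), Hoxb3 at 0.09 ± 0.17 and Hoxd1 at 0.54 ± 0.26 (adjusted p = 0.128). With median centring Hoxd3 and Hoxd4 were at -0.10 and -0.27 and not called, nor were they with the spike ratio as a term. In the HoxD cluster the lower signals in the UB stood on both sides of Hoxd8. A dimmer probe set of Hoxd3 did not pass here (-0.65 ± 0.41, adjusted p = 0.248) or in the other 2 comparisons. Hoxb13 and Hoxd11, the 2 genes of high number with a probe set, did not pass the filter, with 12.0 to 190 for Hoxb13 and 61.0 to 675 for Hoxd11 over the 9 arrays, all tissues overlapping.

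**Figure D3:**
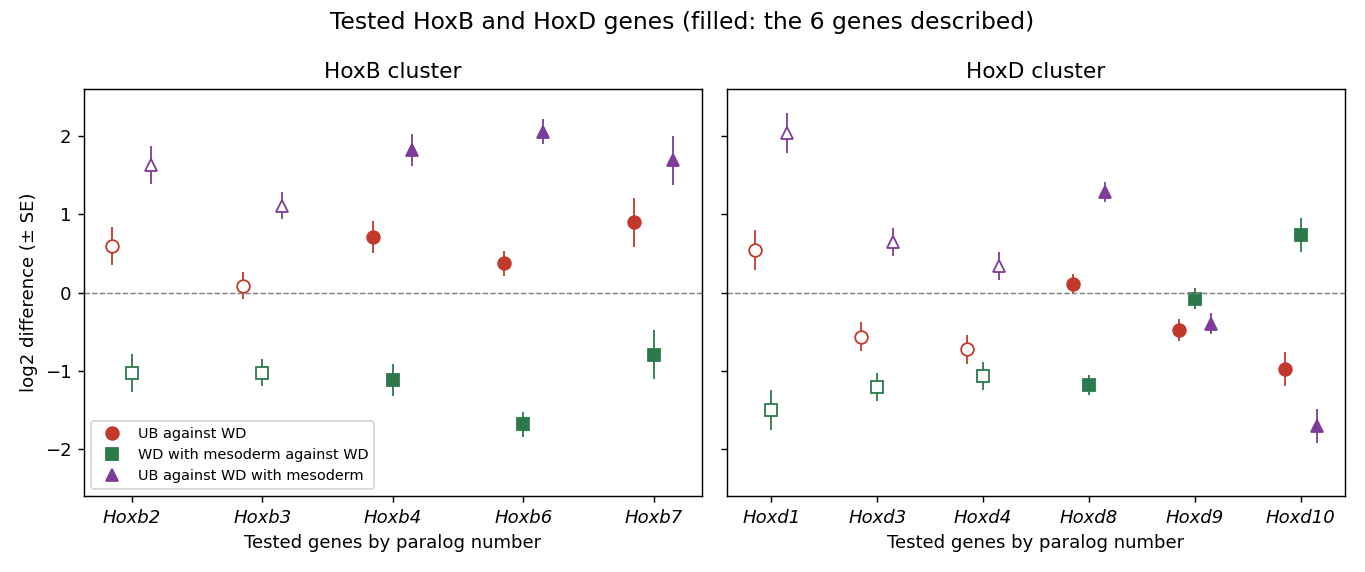
log2 difference with SE on the y axis for each tested HoxB gene (left) and HoxD gene (right), ordered by paralog number on the x axis. Filled symbols are the 6 genes described and open symbols the other tested genes of the clusters. In WD with mesoderm against WD all symbols lie below 0 up to Hoxd8, Hoxd9 lies near 0 and Hoxd10 above it.

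Genes that flank the clusters were looked at for the same profile. Skap1, an adaptor protein of immune cells, is the next protein-coding gene beyond Hoxb1. It fell by 1.77 ± 0.26 in WD with mesoderm against WD (adjusted p = 8.65e-04), where Hoxb6 had -1.68 ± 0.16. In UB against WD with mesoderm it rose by 2.05 ± 0.26, where Hoxb6 had 2.05 ± 0.16. The epithelial list had medians of -1.60 and 1.28 in the same order. The part of tissue makeup in the differences of flanking genes was not tested. Mtx2, a mitochondrial import protein and the next beyond Hoxd1, rose in UB against WD with mesoderm by 0.62 ± 0.16 (adjusted p = 0.0151), and at 0.26 with the spike ratio as a term was not called. Of the 8 flanking genes tested, 0 rose and 1 fell in WD with mesoderm against WD, and 2 rose and 1 fell in UB against WD with mesoderm, beside 12.7% and 25.5% of all probe sets called. The member that fell was Copz2 (-0.88 ± 0.16), a subunit of a vesicle coat, which was not called with median centring (-0.51, adjusted p = 0.0902).

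Paralogs of the 6 genes in HoxA and HoxC were read from the same fit. All 6 tested (Hoxa7, Hoxa9, Hoxa10, Hoxc4, Hoxc8 and Hoxc9) were called lower in UB against WD, beside 18.6% of all probe sets. They ran from -3.84 ± 0.32 for Hoxc9 to -0.59 ± 0.19 for Hoxc4, where Hoxb7 had 0.90 ± 0.32, Hoxd8 0.10 ± 0.13, Hoxd9 -0.48 ± 0.14 and Hoxd10 -0.97 ± 0.21. In WD with mesoderm against WD, 3 were called higher (Hoxa9, Hoxa10 and Hoxc9), as Hoxd10 was, and 1 lower (Hoxc4), with a median of 0.96. Of all probe sets, 5.62% were called higher and 7.06% lower there. The calls of Hoxa9 and Hoxc4 in that comparison were each lost in 9 of 24 alternatives. In UB against WD with mesoderm 0 paralogs were called higher and 5 lower, beside 11.0% and 14.5% of all probe sets. Hoxc4 stood there at 0.17 ± 0.19. The part of tissue makeup in these differences was not tested. The call of Hoxc4 in UB against WD was lost in 12 of 23 alternatives, with -0.35 without WD replicate 2 (adjusted p = 0.108). With the spike ratio as a term, Hoxa7 (-2.85), Hoxc4 (-0.64) and Hoxc8 (-2.88) were not called, and a second, dimmer probe set of Hoxc4 was not called either.

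Several of the cofactors that Hox proteins bind with were lower in the UB. Of 8 Meis, Pbx and Pknox genes tested, 0 rose and 5 fell in UB against WD, 4 rose and 0 fell in WD with mesoderm against WD, and 0 rose and 5 fell in UB against WD with mesoderm. Their median log2 differences were -1.25, 0.65 and -2.11 in these comparisons, against -0.12, -0.04 and -0.05 over all probe sets. Of all probe sets, 29.9%, 12.7% and 25.5% were called in the same order. Meis1 had 3114, 3294 and 1968 in the UB, 51059, 48266 and 46527 in the WD with mesoderm and 24343, 26497 and 22083 in the WD. The tissues were far apart, and UB differed from WD by -3.13 ± 0.18 (adjusted p = 2.07e-07). Meis2 changed by -1.67 ± 0.19, Pbx3 by -1.21 ± 0.15, Meis3 by -1.29 ± 0.24 and Pknox2 by -1.70 ± 0.32 in UB against WD. With the spike ratio as a term the calls of Pbx3 (-0.83, adjusted p = 0.0802), Meis3 (-0.74, adjusted p = 0.36) and Pknox2 (-1.52, adjusted p = 0.207) were lost, and quantile normalization also lost that of Pknox2 (-1.03, adjusted p = 0.0508). Pbx2, at -0.50 ± 0.18 (adjusted p = 0.0526), and Pknox1, at -0.29 ± 0.16 (adjusted p = 0.197), did not pass. Meis1 is also in the mesenchymal list, whose median in UB against WD was -2.00, with 1 gene higher and 11 lower.

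**Figure D4:**
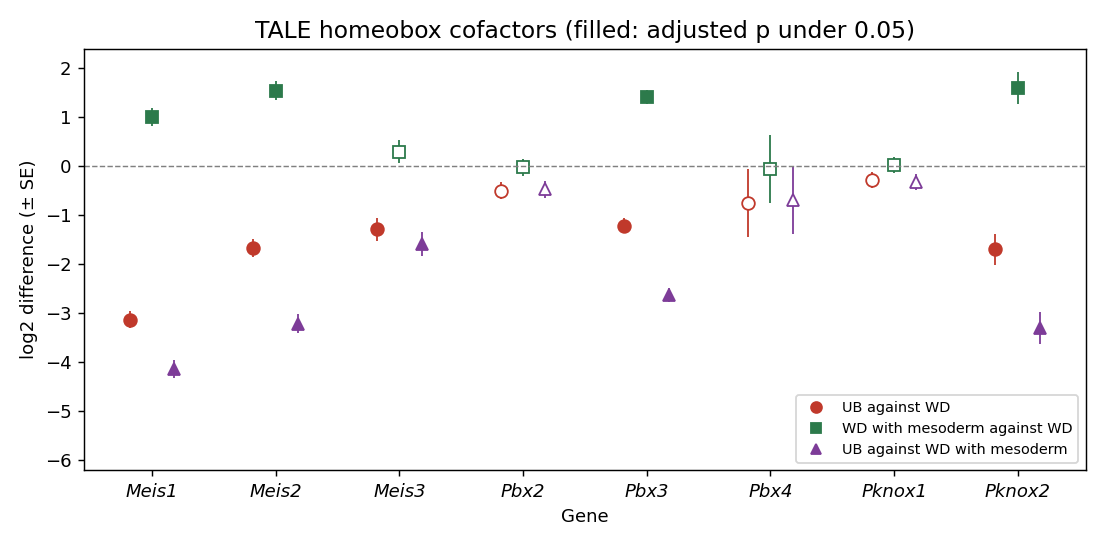
log2 difference with SE on the y axis for 8 homeobox cofactor genes on the x axis, in 3 comparisons. Filled symbols have an adjusted p under 0.05. Meis1, Meis2, Pbx3 and Pknox2 lie below 0 in UB against WD and above 0 in WD with mesoderm against WD, the order that Hoxd10 also has.

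Regulators known to set Hox expression differed gene by gene. Retinoic acid switches on 3′ Hox genes in the embryo. Of 10 such retinoid and transcription regulators tested, 1 rose and 3 fell in UB against WD, beside 29.9% of all probe sets called. Aldh1a2, which makes retinoic acid, changed by -3.71 ± 0.20 (adjusted p = 1.54e-07) and Cyp26b1, which degrades it, by -1.47 ± 0.20 (adjusted p = 2.21e-04). The receptor Rara changed by -1.09 ± 0.22 (adjusted p = 0.00357), a call that was lost with the spike ratio as a term (-1.16, adjusted p = 0.162). Of 8 tested genes of coelomic epithelium and intermediate mesoderm, 0 rose and 6 fell in UB against WD, with a median of -3.93. The part of tissue makeup in the differences of these regulators was not tested. Egr2, an activator of Hoxb2 in the hindbrain of the mouse and also an early response gene, rose by 2.81 ± 0.39 (adjusted p = 2.68e-04). In WD with mesoderm against WD, 1 of the 10 rose and 2 fell, beside 12.7% of all probe sets called. The receptor Rarb rose (0.84 ± 0.19), while Gdf11, a growth factor of tail-end Hox patterning (-0.59 ± 0.17), and Gata3 (-1.05 ± 0.30) fell. The calls of Gdf11 and Gata3 were lost in 13 and 11 of 24 alternatives. With the beta-actin covariate Gdf11 stood at -0.27 and Gata3 at -0.04, neither called. A second probe set of Gata3 was not called.

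Of 18 Polycomb, Trithorax and related chromatin genes, which hold Hox clusters silent or active, 4 rose and 2 fell in UB against WD, with a median of 0.08, beside 29.9% of all probe sets called. The 4 that rose were the Polycomb methyltransferase subunits Suz12 at 0.84 ± 0.22 (adjusted p = 0.0148), Ezh2 at 0.52 ± 0.12 (adjusted p = 0.00807) and Eed at 0.48 ± 0.15 (adjusted p = 0.027), and Rnf2 at 0.53 ± 0.18 (adjusted p = 0.0407). Ezh1 changed by -0.63 ± 0.16 (adjusted p = 0.0107) and the demethylase Kdm6b by -0.56 ± 0.20 (adjusted p = 0.0497). The call of Kdm6b was lost in 14 of 23 alternatives, with -0.34 without UB replicate 3 (adjusted p = 0.197). Eed lost its call in 6 of 23, and Rnf2 in 8 with the sign kept and in 1 with it turned. With the spike ratio as a term 0 of these 6 were called, and Rnf2 stood at -0.05 ± 0.26. Of 9 genes of Hox-interacting proteins, 2 rose and 3 fell in UB against WD, beside the same 29.9% of all probe sets. The 3 that fell were Tshz1 (-2.53 ± 0.18), Tshz2 (-2.19 ± 0.21) and Tshz3 (-2.40 ± 0.17), zinc finger factors of the trunk. Gmnn, a replication inhibitor that also binds Hox proteins, rose by 1.40 ± 0.12, and Smad1 by 0.48 ± 0.15. The call of Smad1 was lost in 8 of 23 alternatives, among them the spike ratio as a term (0.22). The part of tissue makeup in these differences was not tested.

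The profiles of the 6 genes were compared by the root mean square distance between log2 values over 9 arrays. Each gene was centred on its own mean. Nearest genes were sought among tested probe sets with 1 symbol. The 6 genes and symbols that begin with LOC, RGD or Rn were left out of that search. Among the 6, Hoxb4 and Hoxb6 were closest, at 0.252 log2 units, and Hoxb6 and Hoxd10 farthest apart, at 1.58. Hoxd10 lay nearer to Hoxd9 (0.577) than to Hoxd8 (1.26). The nearest 3 genes to Hoxb4 were Tbc1d9 (0.177), Acrbp (0.196) and Arhgef19 (0.199). Those of Hoxb6 were Cgn (0.149), which encodes the tight junction protein cingulin, Capn6 (0.182) and Dpysl5 (0.184). Hoxb7 was nearest to Anxa4 (0.252), Gpc4 (0.273) and Rab25 (0.289), a small GTPase of epithelial cells. The genes closest to Hoxd8 were Capg (0.114), Elf1 (0.119) and Trim2 (0.128), and to Hoxd9 Atp6v1c1 (0.0506), Lgals8 (0.0702) and Washc1 (0.071). Hoxd10 was nearest to Cald1 (0.151), which encodes the actin-binding protein caldesmon, Me1 (0.159) and Tfpi (0.18).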

How the data were processed

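Per the labels' protocols, RNA of 9 tissue pools was biotin-labelled and read on Affymetrix arrays of 1 colour. The deposited table holds 1 linear intensity per probe set and array. GCOS made these values, per the submitters' processing notes. For its version and summary algorithm the sources used here give nothing. All arrays share a mean of 2501 after trimming 2% of probe sets from both ends, so each difference is relative to the other genes of its array. Array medians were 534 to 897. No detection calls were used, so a weak signal cannot be told from background.

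Values were tested as log2(intensity + 46), 46 being the 10th percentile of all values, with limma 3.58.1 in R 4.3.3, with group as the only term over 9 arrays and a mean-variance trend. The filter kept probe sets above the 40th percentile of the array on 3 or more arrays. P-values are two-sided and were adjusted by Benjamini-Hochberg over 20334 probe sets. Differences are first-named minus second-named tissue. Arrays of 1 tissue are biological replicates per the labels, so the spread behind each p-value is that between pools. Gene names came from the platform annotation, updated by Entrez ID with the GRCr8 gene table. A single symbol was given for 20826 probe sets, several for 436 and none for 9780, while 57 were controls. A gene is its brightest probe set. The procedure was tested on simulated data.

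The 6 genes, the gene lists and the tests were chosen with earlier results of these data known. Named beside them were up to 4 genes of a list with the smallest p in a comparison, all members of a count of 5 or fewer, the genes of both clusters and the 3 nearest profiles. Mtx2, Pbx2, Pknox1, Ezh1, Eed, Rnf2, Kdm6b, Gmnn and Smad1, and examples of the marker lists, were named after their values were seen where they fell outside that rule. Alternatives changed the scaling, the pseudocount, the filter, the variance model, the probe set rule and the arrays in the fit, or added the spike ratio, the actin ratio or the replicate number as a term.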

Additional observations from a re-analysis of the deposited data

How the results depend on the processing

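Over the alternatives run, the 3 differences of each of the 6 genes gave 426 values, of which 363 kept their side of the threshold, 60 lost a call, 3 gained one and 0 called values turned. Of the 363, 3 uncalled values near 0 changed sign, namely Hoxd8 in UB against WD with quantile normalization (-0.033) and Hoxd9 in WD with mesoderm against WD with median centring (0.017) and the actin covariate (0.036). Hoxb4, Hoxb6, Hoxd8 and Hoxd10 in UB against WD with mesoderm, and Hoxb6 and Hoxd8 in WD with mesoderm against WD, kept their calls in all of them. Adjusted p-values follow values in parentheses.

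In UB against WD, Hoxb7 missed the threshold with quantile normalization at 0.92 (0.0756), a pseudocount of 1 at 0.91 (0.0522), no filter or no trend at 0.90 (0.0564 and 0.0903), array weights at 0.65 (0.0883), the spike term at 0.60 (0.644) and the beta-actin covariate at 0.68 (0.296). Hoxb6 passed with median centring at 0.83 (0.00746) and array weights at 0.41 (0.0348). Hoxd9 was lost with median centring at -0.017 (0.959), the spike term at -0.36 (0.482) and the actin covariate at -0.38 (0.181), Hoxd10 in the same order at -0.51 (0.144), -1.40 (0.0651) and -0.66 (0.11), and Hoxb4 with the spike term at 1.01 (0.169) and the actin covariate at 0.64 (0.141). The spike term, the actin covariate and a 2-fold minimum called 0 of the 6 genes, and 798, 3276 and 3004 of all probe sets.

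In WD with mesoderm against WD, Hoxd10 was lost with median centring at 0.83 (0.058), at 0.73 with no filter (0.0569), no trend (0.0641), these 2 tissues fitted alone (0.058) and the replicate block (0.0608), with array weights at 0.64 (0.111), the spike term at 0.59 (0.135), arrays of spike ratio 2 or less at 0.59 (0.188) and the actin covariate at 1.10 (0.0615). The actin covariate also lost Hoxb4 at -1.20 (0.0561), leaving 2 of the 6. It called 826 probe sets, arrays of low spike ratio 1444 and the 2-fold minimum 1464. In UB against WD with mesoderm, Hoxd9 was lost with quantile normalization at -0.38 (0.0699), median centring at -0.034 (0.916), at -0.40 with no filter (0.0624), no trend (0.0665) and the replicate block (0.0767), and at -0.32 with the spike term (0.387) and within arrays of spike ratio above 2 (0.244), where replicate 3 of WD with mesoderm is alone and assumed to vary like the UB. Hoxb7 with the spike term stood at 1.49 (0.0625). The spike term called 2414 probe sets, arrays of high spike ratio 2992 and the 2-fold minimum 2981.

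Leaving out each replicate in turn gave, in UB against WD, 0.56 to 0.85 for Hoxb4, 0.26 to 0.56 for Hoxb6, 0.61 to 1.16 for Hoxb7 and -0.53 to -0.41 for Hoxd9, with 1 to 4 of the 6 genes and 3742 to 6488 probe sets called. It gave 0.59 to 0.89 for Hoxd10 and -1.08 to -0.53 for Hoxb7 in WD with mesoderm against WD, with 3 to 4 of the 6 genes called, and -0.44 to -0.37 for Hoxd9 in UB against WD with mesoderm, with 5 to 6 called.

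Among 123 other genes followed, 8673 values gave 1 reversal of a called difference, Rnf2 in UB against WD at -0.046 (0.95) with the spike term, and 222 sign changes of uncalled ones. The cause of these shifts was not tested. With the replicate number as a block, all probe sets called were 5338, 2194 and 4608 in the order above, and 4, 3 and 5 of the 6 genes were called. The same-numbered arrays correlated at -0.348 to 0.277, so the numbers are not taken as pairs. 3 arrays per tissue limit the precision, and without detection calls weak signals have no known floor.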
